A study of Caenorhabditis elegans with 24 samples.

Results

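Histone H3 lysine 4 (H3K4) methylation is placed and removed by a small group of conserved enzymes, and the RNA of 10 of their genes was followed here in *Caenorhabditis elegans* that lacked functional SET-9, SET-26 or both. The genes were chosen by their known roles, with earlier results of these data known. They comprise 7 genes for the writers, *set-2*, *set-16*, *wdr-5.1*, *ash-2*, *rbbp-5*, *dpy-30* and *cfp-1*, and 3 genes for the erasers, *rbr-2*, *spr-5* and *lsd-1*. All 10 were found among the 46508 genes of the count table, and all 10 were among the 14667 genes that had at least 20 reads in at least 1 library and were therefore tested. Total RNA of whole L4 larvae (the last larval stage) was sequenced after removal of ribosomal RNA, in 2 libraries for each of 4 genotypes: worms mutant for both genes (*set-9 set-26*, with the alleles *set-9(rw5)* and *set-26(tm2467)*), the *set-26(tm2467)* mutant, the *set-9(rw5)* mutant and the wild-type strain N2. Per the study's description of its strains, both alleles are deletions that bring in a premature stop codon, and the double mutant was kept as a balanced heterozygous stock. The study profiled double mutants of more than one generation, and the labels do not say which generation these libraries came from. The labels also do not say that the libraries of a genotype came from separate cultures, so every p value here measures only the spread between these libraries, which may be technical.

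In the nematode, as in other animals, methyl groups are added to H3K4 by COMPASS complexes, which are built around a catalytic SET-domain protein. SET-2 is the catalytic subunit related to yeast Set1 and SET-16 is the one related to mammalian MLL. WDR-5.1, ASH-2, RBBP-5 and DPY-30 form the core that both catalytic subunits need, and CFP-1 is a CXXC zinc finger protein that brings the Set1-type complex to chromatin. RBR-2 is a KDM5-type demethylase that acts on trimethylated H3K4, and SPR-5 and LSD-1 are relatives of mammalian LSD1, which acts on the lower methylated states. In worms these enzymes are known for roles in germline development, fertility across generations and lifespan. SET-9 and SET-26 are near-identical paralogs that carry a PHD finger and a SET domain. The study asked what SET-9 and SET-26 do in worms and at chromatin marked by H3K4 methylation, and the comparison made here asks whether the RNA of the enzymes that write and erase that mark differed when SET-9, SET-26 or both were missing.

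The library totals over genes ran from 16363189 to 26187811 estimated reads. Levels are given as TMM-scaled CPM, that is, reads relative to a library size that edgeR adjusts so that most genes do not differ. In these units 3 reads were worth 0.118 to 0.195 CPM, depending on the library. Pearson's r of log2(CPM + 1) across genes, which are not independent replicates, was 0.983 to 0.989 between the 2 libraries of a genotype. The *set-9* gene itself had 30.6 and 33.0 CPM in *set-9 set-26*, 115 and 107 in *set-26*, 46.0 and 39.9 in *set-9* and 90.4 and 91.4 in N2, so it was lowest in both genotypes that carry *set-9(rw5)*, although its reads may be shared with its paralog. The RNA of *set-26* was not analysed here, which leaves the *set-26* label without such a check. The libraries are of whole worms, so fewer cells of a type and less RNA per cell cannot be told apart. With 2 libraries in a group, no permutation test can pass a threshold, and the tests below come from edgeR's quasi-likelihood fit to all 8 libraries.

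Marker genes of 6 tissues or cell types were expressed in all genotypes, at summed levels that differed between genotypes. The 12 germline genes summed to 1900 and 2240 CPM in *set-9 set-26* and to 2720 and 2260 in N2. Their sums were 2350 and 2130 CPM in *set-26* and 2510 and 2180 in *set-9*, and 2 of the 12 fell in *set-9 set-26* over N2. The 9 sperm genes found in the table summed to 337 and 349 CPM in *set-9 set-26*, to 176 and 133 in *set-26*, to 101 and 62.2 in *set-9* and to 195 and 122 in N2, 1 of the 8 tested rose in *set-9 set-26* over N2, and *spe-38* was at 0 in at least 1 library. The 10 oocyte genes summed to 1870 and 1920 CPM in *set-9 set-26*, to 768 and 388 in *set-26*, to 1090 and 601 in *set-9* and to 1530 and 785 in N2, and 0 of them were called. The 8 genes of molting epidermis summed to 8440 and 8440 CPM in *set-9 set-26*, to 4950 and 5410 in *set-26*, to 5060 and 6650 in *set-9* and to 11100 and 15300 in N2, and 3 fell in *set-9 set-26*, 6 in *set-26* and 2 in *set-9*. Sums of the 5 muscle genes were 15800 and 16100 CPM in *set-9 set-26* and 18400 and 20100 in N2 (0 called), and those of the 4 intestine genes were 1570 and 1870 CPM in *set-9 set-26* and 2520 and 2880 in N2 (2 fell). In the single mutants 0 genes of the other 5 lists were called by edgeR. Of all tested genes, 10.3% were called over N2 in *set-9 set-26*, 2.39% in *set-26* and 0.464% in *set-9*, in either direction. The part of these marker differences in the results below was not tested.

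Among the writers and erasers, the gene whose RNA passed a test was *set-2*, and among 10 further genes tied to H3K4 methylation, described further below, the one with the largest change was *utx-1*. The 250 bases before the annotated starts of both genes are printed because these are the member that passed a test and the further gene with the largest change. *set-2* lies on chromosome III of WBcel235 (4922427 to 4930204, minus strand) and *utx-1* on chromosome X (8557146 to 8563238, plus strand). The windows are chrIII:4930205-4930454 on the minus strand and chrX:8556896-8557145 on the plus strand, both from the RefSeq copy of WBcel235, and neither overlaps an annotated exon of another gene. Capitals mark TTTCAG, the consensus of a nematode 3′ splice site, at which a spliced leader is commonly joined to the first exon of a gene. 
set-2: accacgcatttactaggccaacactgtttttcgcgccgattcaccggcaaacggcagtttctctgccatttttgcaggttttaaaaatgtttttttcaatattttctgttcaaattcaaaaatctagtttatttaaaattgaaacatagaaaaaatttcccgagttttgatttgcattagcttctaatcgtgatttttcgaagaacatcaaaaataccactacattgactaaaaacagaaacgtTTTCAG
utx-1: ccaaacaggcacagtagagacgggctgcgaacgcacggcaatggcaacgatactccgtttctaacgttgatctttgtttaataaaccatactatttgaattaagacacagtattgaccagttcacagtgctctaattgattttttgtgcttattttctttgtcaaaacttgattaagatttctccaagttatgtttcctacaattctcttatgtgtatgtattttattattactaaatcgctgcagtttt
The *set-2* window holds TTTCAG once, directly at the annotated start, and the *utx-1* window holds it on neither strand. TTTCAG stood on the gene's strand in 30.3% of the windows of 19973 protein-coding genes and directly at the start in 12.3%, and it or its complement CTGAAA stood in 42.6%. The window of *set-2* was 32.8% G and C and that of *utx-1* 35.2%.

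Per kilobase of exon, the members covered a wide range of levels, with *dpy-30* at the top and *lsd-1* at the bottom in every genotype. *dpy-30*, which encodes a small subunit shared by both COMPASS types, had the highest level, at 132 ± 0.0735 CPM per kilobase in *set-9 set-26*, 149 ± 14.8 in *set-26*, 154 ± 11 in *set-9* and 138 ± 5 in N2 (SD, n = 2 each). The catalytic subunit gene *set-2* came next, at 29.3 ± 3.32 CPM per kilobase in *set-9 set-26*, 26.4 ± 1.47 in *set-26*, 22.1 ± 0.33 in *set-9* and 23.7 ± 0.481 in N2 (SD, n = 2 each). Genotype means of *set-16*, *wdr-5.1*, *ash-2*, *cfp-1*, *rbr-2* and *spr-5* all lay between 12.3 and 19.6 CPM per kilobase. The core subunit gene *rbbp-5* was lower, between 6.18 and 7.04 CPM per kilobase. *lsd-1*, which with *spr-5* is one of the LSD1 relatives, was the lowest, with genotype means of 1.57 CPM per kilobase in *set-9 set-26*, 1.26 in *set-26* and 0.896 in *set-9*, while N2 is given per library further below. Among the LSD1 relatives, *spr-5* was therefore the more abundant RNA in whole L4 worms.

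**Figure D1:**
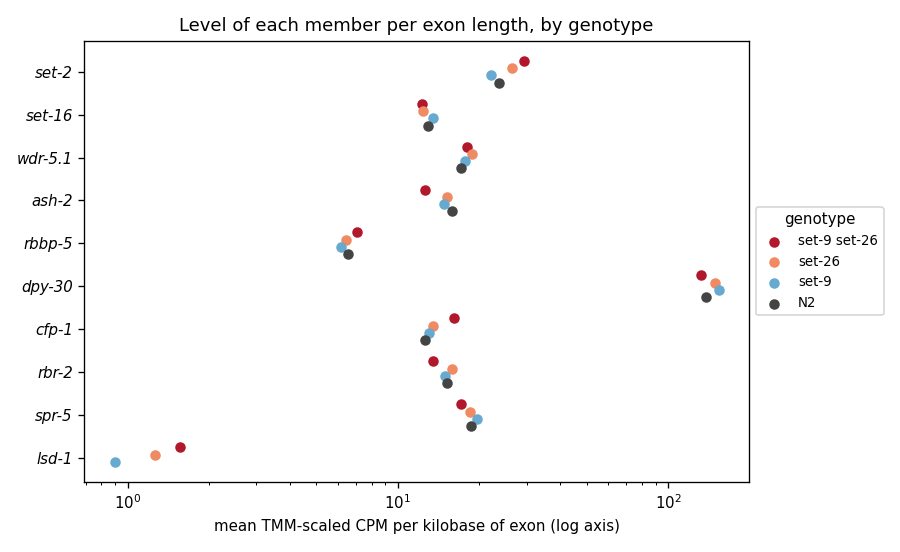
Mean TMM-scaled CPM per kilobase of exon (log axis) for each member (rows), with 1 point per genotype, drawn from 2 libraries each; the point of *lsd-1* in N2 is left out because 1 of its libraries is listed at 0. *dpy-30* lies at 132 to 154, *lsd-1* at 0.896 to 1.57, and the genotypes of each gene other than *lsd-1* lie close together.

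The RNA of the writers and erasers differed little between genotypes. Over the 8 libraries, the SD of log2(CPM + 1) had a median of 0.13 over the 10 members and of 0.28 over all 14667 tested genes. Over the 9388 tested genes with a mean of at least 5 CPM, which is closer to the levels of most members, it was 0.23. The highest genotype mean exceeded the lowest by a median factor of 1.17 among the members and of 1.55 among all tested genes. Among the 9388 genes with a mean of at least 5 CPM this factor was 1.37. Among the 10, *lsd-1* varied most, with an SD of 0.76, and *wdr-5.1* least, with 0.082. These are descriptions of a list chosen with earlier results of these data known, and no test was made of the list against other genes.

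**Figure D2:**
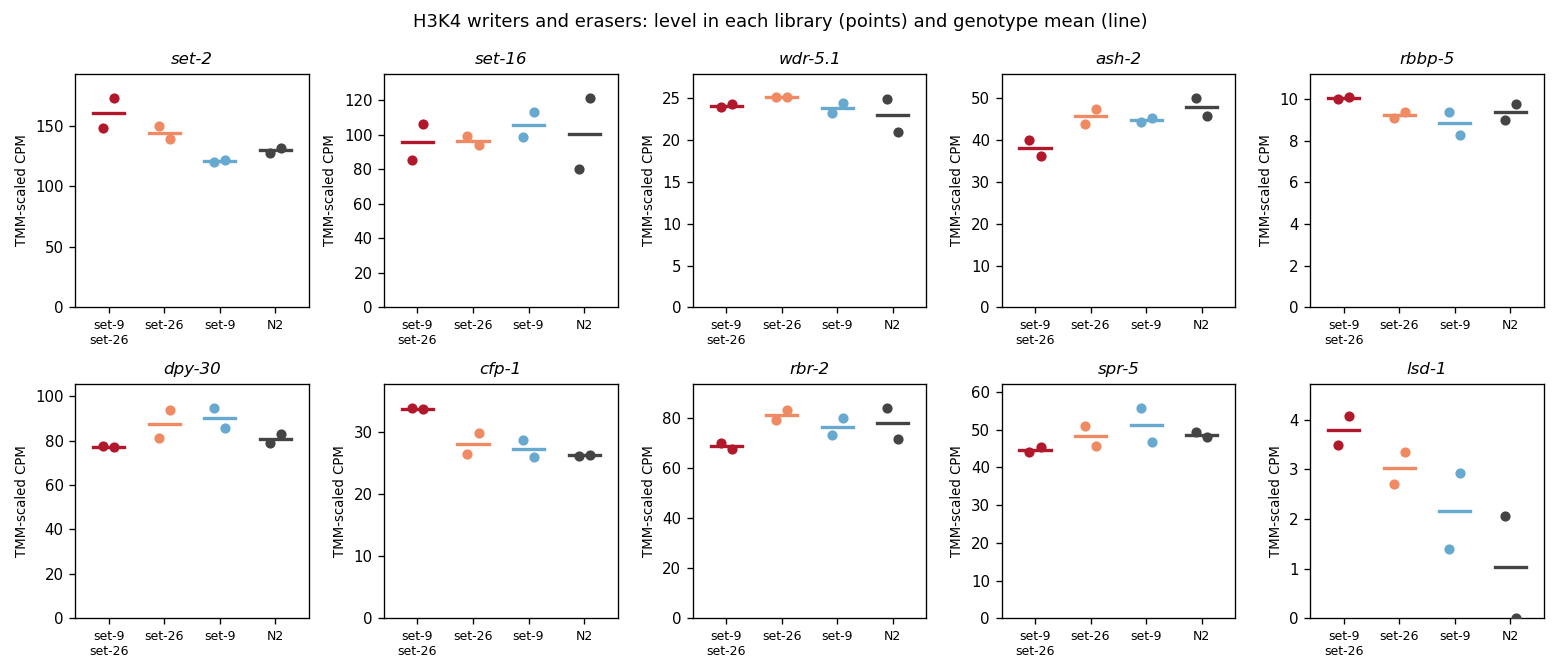
TMM-scaled CPM (vertical axes, each from 0) of the 10 members in each library (points) with the genotype mean (line), for *set-9 set-26*, *set-26*, *set-9* and N2 from left to right. *set-2* reaches 148 and 173 in *set-9 set-26* against 128 and 132 in N2, *cfp-1* 33.8 and 33.6 against 26.1 and 26.3, and *ash-2* 39.9 and 36.1 against 50.1 and 45.8.

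*set-2* was the one member called in any of 7 comparisons. It had 148 and 173 CPM in *set-9 set-26*, 150 and 139 in *set-26*, 120 and 122 in *set-9* and 128 and 132 in N2. Both *set-9 set-26* libraries and both *set-26* libraries were above all libraries of *set-9* and N2, the double mutant overlapped with *set-26*, and N2 was above *set-9*. Compared with *set-9*, *set-2* rose in *set-9 set-26* by a log2 fold change of 0.41 (standard error, SE, 0.11, 95% interval 0.15 to 0.67, Benjamini-Hochberg adjusted p = 0.033 in edgeR's test), which is 1.33-fold. In that comparison 25.9% of all tested genes were called, 14.2% as higher and the rest as lower, so 1 call among 10 members was below the background, and 2 members (*set-2* and *cfp-1*) had an unadjusted p under 0.05, against 38.7% of all genes. The call was lost without *set-9* replicate 1 (0.39, edgeR adjusted p = 0.12), without *set-9* replicate 2 (0.42, adjusted p = 0.13), without *set-9 set-26* replicate 2 (0.29, adjusted p = 0.15) and in an edgeR fit to the 4 compared libraries alone (0.40, adjusted p = 0.065). Compared with N2, the log2 fold change of *set-2* in *set-9 set-26* was 0.30 (SE 0.11, 95% interval 0.05 to 0.56), and it missed the 5% rate with an adjusted p of 0.12 from edgeR. The single mutants differed from N2 by 0.15 (95% interval −0.10 to 0.41) in *set-26* and by −0.10 (−0.36 to 0.15) in *set-9*. Between the single mutants, *set-26* over *set-9*, it was 0.26 (95% interval 0.00 to 0.52, edgeR adjusted p = 0.34).

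*set-16*, for the MLL-type catalytic subunit, had 85.4 and 106 CPM in *set-9 set-26*, 99.1 and 93.9 in *set-26*, 98.5 and 113 in *set-9* and 80.0 and 121 in N2. All 4 genotypes overlapped, and the N2 libraries, which differed 1.51-fold, enclosed every other library. Its log2 fold change over N2 was −0.07 in *set-9 set-26* (95% interval −0.54 to 0.39), −0.06 in *set-26* (−0.52 to 0.41) and 0.07 in *set-9* (−0.40 to 0.54). These intervals are the widest of any member except *lsd-1*, and the one for *set-9* reaches 1.45-fold. The ratio of *set-2* reads to *set-16* reads was 1.73 and 1.64 in *set-9 set-26*, 1.52 and 1.48 in *set-26*, 1.21 and 1.09 in *set-9* and 1.60 and 1.09 in N2, so the double mutant lay above the other genotypes, with 1 N2 library at 1.60 close to it.

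Among the subunits shared by both COMPASS types, *ash-2* was the one with the lowest level in the double mutant relative to N2. It had 39.9 and 36.1 CPM in *set-9 set-26*, 43.9 and 47.5 in *set-26*, 44.3 and 45.2 in *set-9* and 50.1 and 45.8 in N2. The double mutant libraries were below those of every other genotype, which overlapped with each other in neighbouring pairs. The log2 fold change in *set-9 set-26* over N2 was −0.34 (SE 0.11, 95% interval −0.60 to −0.07, edgeR adjusted p = 0.098), which misses the 5% rate. Over *set-26* it was −0.27 (SE 0.11, adjusted p = 0.16) and over *set-9* −0.24 (SE 0.11, adjusted p = 0.17). *ash-2* shares 34 bases of exon, 1.13% of its exon length, with the genes *Y17G7B.3* and *Y17G7B.20*, so a few of its reads could belong to them.

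The other 3 shared core genes had no unadjusted p under 0.05 in edgeR in any comparison. *wdr-5.1*, whose WD40 protein is the hub of the complex, had 23.9 and 24.3 CPM in *set-9 set-26*, 25.1 and 25.2 in *set-26*, 23.3 and 24.4 in *set-9* and 24.9 and 21.0 in N2. Its log2 fold change over N2 was 0.07 in *set-9 set-26* (95% interval −0.23 to 0.37), and the *set-26* libraries were the highest of the 8 by a small margin. *rbbp-5*, also for a WD40 protein, had 10 and 10.1 CPM in *set-9 set-26*, 9.06 and 9.36 in *set-26*, 9.39 and 8.27 in *set-9* and 8.98 and 9.76 in N2, with a log2 fold change over N2 of 0.10 in *set-9 set-26* (95% interval −0.27 to 0.48). Its reads are few, from 127 to 228 per library, and it shares 45 bases of exon, 3.15%, with the antisense RNA gene *anr-22*. *dpy-30*, first found through the dosage compensation of the X chromosome, had 77.4 and 77.3 CPM in *set-9 set-26*, 81.4 and 93.7 in *set-26*, 94.9 and 85.8 in *set-9* and 78.8 and 82.9 in N2. The double mutant libraries of *dpy-30* were the lowest of the 8, by a small margin from N2.

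*dpy-30* had the largest departure of a member, other than *lsd-1*, from additivity of the single mutants. Its log2 fold change over N2 was −0.06 in *set-9 set-26* (95% interval −0.32 to 0.20), 0.11 in *set-26* (−0.15 to 0.37) and 0.16 in *set-9* (−0.10 to 0.42). The double mutant change minus the sum of both was −0.34 on the log2 scale (SE 0.16, 95% interval −0.71 to 0.03, edgeR adjusted p = 0.19). In this interaction 0 of 10 members were called, 0 had an unadjusted p under 0.05 and 0 were called by DESeq2, where edgeR called 13.9% of all tested genes and 30.9% had an unadjusted p under 0.05. DESeq2 called 2357 of the 14667 tested genes in the interaction. For *set-2* the same quantity was 0.25 (95% interval −0.11 to 0.62).

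*cfp-1*, for the CXXC protein of the Set1-type complex, had similar levels in both libraries of the double mutant, above those of N2, and missed the 5% rate. It had 33.8 and 33.6 CPM in *set-9 set-26*, 26.4 and 29.8 in *set-26*, 28.7 and 25.9 in *set-9* and 26.1 and 26.3 in N2. Both double mutant libraries were above all 6 other libraries, and the single mutants overlapped with each other. The log2 fold change over N2 in *set-9 set-26* was 0.36 (SE 0.12, 95% interval 0.08 to 0.65, edgeR adjusted p = 0.099), which is 1.29-fold. It was 0.31 over *set-9* (SE 0.12, adjusted p = 0.11) and 0.26 over *set-26* (SE 0.12, adjusted p = 0.20). In the single mutants it was 0.10 in *set-26* (95% interval −0.18 to 0.39) and 0.06 in *set-9* (−0.23 to 0.34).

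*rbr-2*, for the demethylase of trimethylated H3K4, had 70.1 and 67.6 CPM in *set-9 set-26*, 78.9 and 83.0 in *set-26*, 73.0 and 79.7 in *set-9* and 84.0 and 71.4 in N2. The double mutant libraries were the lowest of the 8, but the N2 libraries differed 1.18-fold between themselves. The log2 fold change over N2 was −0.18 in *set-9 set-26* (95% interval −0.44 to 0.09, edgeR adjusted p = 0.36), 0.06 in *set-26* (−0.21 to 0.33) and −0.03 in *set-9* (−0.30 to 0.24). *rbr-2* shares 98 bases of exon, 1.92%, with *dnc-1* on the opposite strand, and whether the reads were counted by strand is not given in the sources used here.

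*spr-5*, an LSD1 relative needed to keep worms fertile over generations, had 44.1 and 45.4 CPM in *set-9 set-26*, 51.0 and 45.8 in *set-26*, 55.8 and 46.8 in *set-9* and 49.4 and 48.0 in N2. The double mutant libraries were again the lowest, without a gap to *set-26* larger than that between replicates. The log2 fold change over N2 was −0.12 in *set-9 set-26* (95% interval −0.41 to 0.16, edgeR adjusted p = 0.55), −0.01 in *set-26* (−0.29 to 0.28) and 0.08 in *set-9* (−0.21 to 0.36).

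*lsd-1* had the fewest reads of the members. It had 66 and 80 reads in *set-9 set-26*, 54 and 62 in *set-26*, 25 and 45 in *set-9* and 52 and 0 in N2, or 3.50 and 4.08, 2.70 and 3.35, 1.39 and 2.93, and 2.05 and 0 CPM. The N2 libraries thus lay far apart, the *set-9* libraries enclosed the higher of them, and the double mutant libraries were the highest of the 8. The value of 0 is an estimate of the authors' counting program, and N2 replicate 2 listed 6 genes at 0, *lsd-1* among them, that had at least 20 reads in each of the other 7 libraries. The same count was 2 and 3 in *set-9 set-26*, 0 and 2 in *set-26*, 7 and 14 in *set-9* and 5 in N2 replicate 1. The fitted log2 fold change over N2 was 1.80 in *set-9 set-26* (SE 1.02, 95% interval −0.57 to 4.17, edgeR adjusted p = 0.28), 1.48 in *set-26* (−0.89 to 3.85) and 0.98 in *set-9* (−1.43 to 3.40), so the intervals span differences in either direction. Without N2 replicate 2, the library listed at 0, the fitted values were 0.89 in *set-9 set-26*, 0.56 in *set-26* and 0.07 in *set-9*, and none was called. Without N2 replicate 1, where N2 rests on the library listed at 0, edgeR called *lsd-1* in *set-9 set-26* and in *set-26*, and these fits give no size.

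The comparisons with N2 can be set against the whole table. In *set-9 set-26*, 0 of 10 members passed the 5% rate in edgeR and 0 in DESeq2, while 3, *set-2*, *cfp-1* and *ash-2*, had an unadjusted p under 0.05. The background was 10.3% of all tested genes called and 29.2% with an unadjusted p under 0.05. In *set-26*, 0 of 10 passed in either tool and 0 had an unadjusted p under 0.05, against a background of 2.39% called and 16.3%. In *set-9*, 0 of 10 passed in either tool and 0 had an unadjusted p under 0.05, against 0.464% called and 13.3%. These shares are edgeR's. Of the same 14667 genes, DESeq2 called 1912 in *set-9 set-26*, 838 in *set-26* and 502 in *set-9*. The median absolute log2 fold change of the members was 0.15 in *set-9 set-26*, 0.09 in *set-26* and 0.08 in *set-9*, and that of all tested genes was 0.35, 0.25 and 0.22 in the same comparisons. Signed, the members were balanced: 5 of 10 were above and 5 below N2 in *set-9 set-26*, with a median of 0.00, and 6 were above and 4 below in either single mutant.

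Between mutants, the counts were as small. In *set-9 set-26* over *set-26*, 0 of 10 members were called by edgeR and 0 by DESeq2, 1 (*ash-2*) had an unadjusted p under 0.05, against a background of 10.4% called and 30.3%. In *set-26* over *set-9*, 0 of 10 were called by either tool, 1 (*set-2*, at a p of 0.05 after rounding) had an unadjusted p under 0.05, against a background of 0.695% called and 14.5%. These shares are also edgeR's. DESeq2 called 2136 genes in *set-9 set-26* over *set-26* and 459 in *set-26* over *set-9*. The libraries of *set-9 set-26* and N2 did not overlap for 8 of 10 members, where they did not for 59.4% of all tested genes. The same was so for 8 of 10 in *set-9 set-26* against *set-9* (67.1% of all genes), 8 of 10 in *set-9 set-26* against *set-26* (62.3%), 4 of 10 in *set-26* against N2 (46.0%), 3 of 10 in *set-9* against N2 (41.9%) and 2 of 10 in *set-26* against *set-9* (46.2%). These comparisons share libraries and are not independent of each other.

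**Figure D3:**
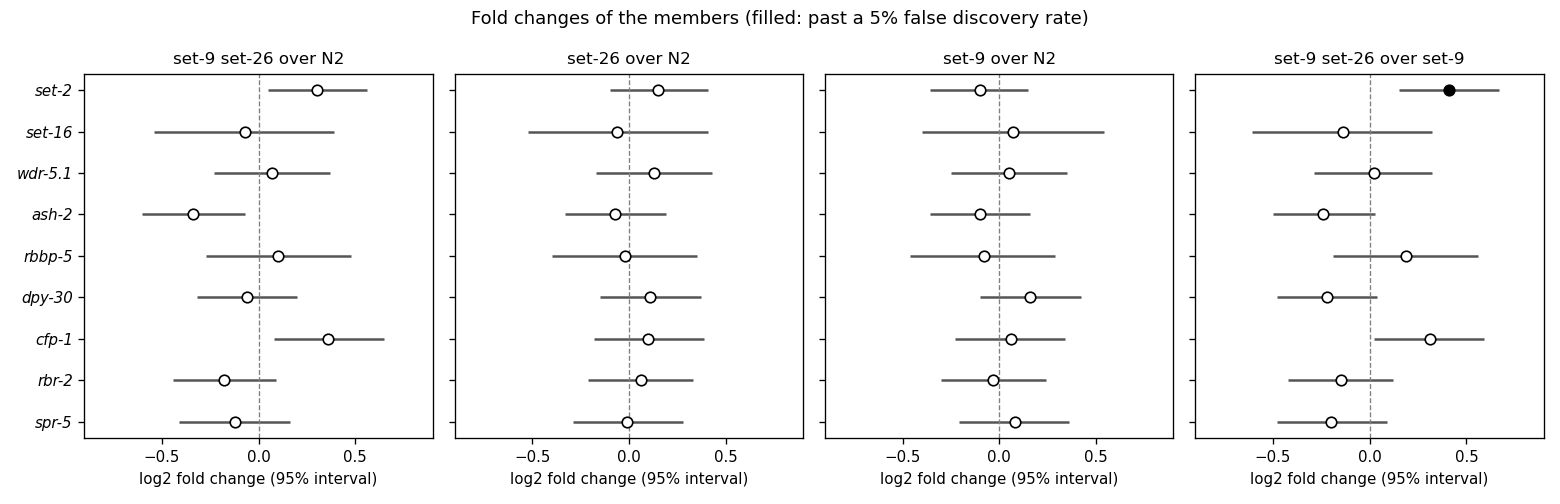
Log2 fold change (horizontal axis, bars are 95% intervals from edgeR's quasi-likelihood fit) of 9 members in 4 comparisons, with *lsd-1* left out because its intervals span more than the axis. The filled point, *set-2* at 0.41 in *set-9 set-26* over *set-9*, is past the 5% rate, and every interval in the *set-26* over N2 and *set-9* over N2 panels spans 0.

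The scaling of the libraries does not enter the ratio of the reads of a pair of genes within a library, and 3 such pairs were taken after their values had been seen. The *cfp-1* to *ash-2* ratio was 0.847 and 0.932 in *set-9 set-26*, 0.602 and 0.627 in *set-26*, 0.647 and 0.571 in *set-9* and 0.520 and 0.575 in N2. The *set-2* to *ash-2* ratio was 3.70 and 4.80 in *set-9 set-26*, 3.43 and 2.92 in *set-26*, 2.70 and 2.70 in *set-9* and 2.55 and 2.88 in N2. The *set-2* to *rbr-2* ratio, writer over eraser, was 2.11 and 2.56 in *set-9 set-26*, 1.91 and 1.67 in *set-26*, 1.64 and 1.53 in *set-9* and 1.52 and 1.85 in N2. In all 3 pairs both double mutant libraries were above all 6 other libraries. No test was made of these ratios, since the pairs were picked for their values.

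**Figure D4:**
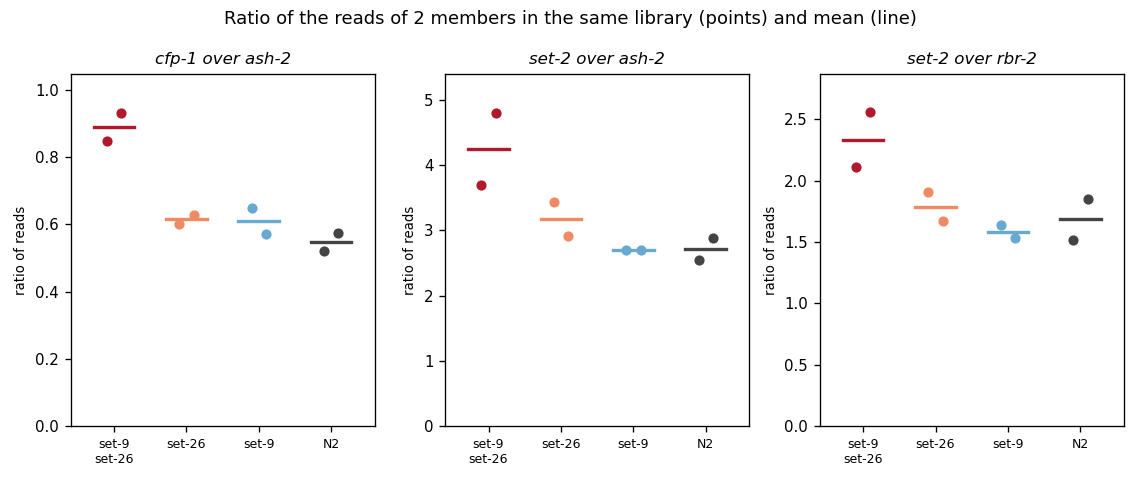
Ratio of the reads of a pair of members in the same library (points, vertical axes from 0) with the genotype mean (line), for *set-9 set-26*, *set-26*, *set-9* and N2 from left to right. The *cfp-1* to *ash-2* ratio lies at 0.847 and 0.932 in *set-9 set-26* and at 0.520 to 0.647 in the 6 other libraries.

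Across the 8 libraries, some members varied together. Pearson's r of log2 levels was 0.87 for *wdr-5.1* and *lsd-1*, 0.84 for *ash-2* and *rbr-2*, 0.76 for *rbbp-5* and *cfp-1* and 0.67 for *set-2* and *cfp-1*, and it was −0.78 for *ash-2* and *cfp-1*. The first of these values includes the N2 library in which *lsd-1* is listed at 0, and libraries of a genotype share that genotype, so these are descriptions of 8 points. The genes whose levels followed *set-2* most closely over the same libraries were *Y42H9AR.2* (r = 0.986), *rod-1* (r = 0.970), for a kinetochore protein, and *panl-2* (r = 0.967), for a subunit of a poly(A) nuclease. *Y42H9AR.2* was at or under 1.12 CPM in every library, and 145 tested genes had an r with *set-2* over 0.9.

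Of 10 further genes tied to H3K4 methylation, *utx-1* had the largest change in the double mutant. These 10 were chosen by role, with earlier results of these data known. The list held the SET-domain genes *set-17* and *set-30*, the *wdr-5.1* paralogs *wdr-5.2* and *wdr-5.3*, the COMPASS-associated genes *swd-2.2*, *pis-1*, *utx-1* and *hcf-1*, and the LSD1 relative *amx-1* with *spr-1*, for a CoREST-type partner of SPR-5. In *set-9 set-26* compared with N2, 2 of these 10 rose and 0 fell in edgeR's test, over *set-9* 2 rose and 0 fell, and over *set-26* 1 rose and 0 fell. The Wald test of DESeq2 and edgeR with a replicate block each also called *wdr-5.3* over N2 and over *set-26*, which made 3 and 2 genes there. Among all tested genes, edgeR's test without the block called 4.42% as higher over N2, 14.2% over *set-9* and 5.12% over *set-26*. Over N2, DESeq2 called 1912 of the 14667 tested genes and edgeR with the block 2442, with 47.1% of the calls higher in each. Over *set-26* they called 2136 and 2529, with 55.2% and 54% higher. In the single mutants compared with N2 and with each other 0 of 10 were called by edgeR or DESeq2, and 1 had an unadjusted p under 0.05, *pis-1* in *set-26*. The backgrounds of these comparisons are given above. The median absolute log2 fold change over N2 in the double mutant was 0.24, beside 0.35 for all tested genes. *hcf-1*, for a chromatin-bound host cell factor homolog, was the steadiest of them, with genotype means that differed at most 1.03-fold.

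*utx-1* encodes a Jumonji demethylase of H3K27 that is found in the SET-16 complex. It had 35.4 and 47.9 CPM in *set-9 set-26*, 14.4 and 15.3 in *set-26*, 10.7 and 12.1 in *set-9* and 9.89 and 12.9 in N2. The double mutant was far above all other libraries, *set-26* lay slightly above *set-9* and N2, and *set-9* and N2 overlapped. Compared with N2, *utx-1* rose in *set-9 set-26* by a log2 fold change of 1.88 (SE 0.20, 95% interval 1.40 to 2.35, edgeR adjusted p = 0.0045), or 3.67-fold. It also rose over *set-9* (1.87, SE 0.20, adjusted p = 0.0019) and over *set-26* (1.49, SE 0.20, adjusted p = 0.0078). The single mutants differed from N2 by 0.38 in *set-26* (95% interval −0.08 to 0.85, edgeR adjusted p = 0.41) and by 0.00 in *set-9* (−0.47 to 0.48). The double mutant change exceeded the sum of both by 1.49 (SE 0.28, 95% interval 0.83 to 2.15, edgeR adjusted p = 0.020). With each library left out in turn, *utx-1* stayed past the 5% rate over N2 and over *set-9* in 8 of 8 fits. Without *set-26* replicate 2 or without *set-9 set-26* replicate 2, its calls over *set-26* (edgeR adjusted p = 0.068 and 0.061) and in the interaction (adjusted p = 0.067 and 0.065) were lost. Its exons overlap no other annotated gene.

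The other calls in that list were smaller. *pis-1*, for a protein related to mammalian PTIP and found with MLL-type complexes, had 147 and 150 CPM in *set-9 set-26*, 134 and 132 in *set-26*, 128 and 118 in *set-9* and 111 and 111 in N2, with no overlap between any pair of genotypes. It rose in *set-9 set-26* over N2 by a log2 fold change of 0.42 (SE 0.09, edgeR adjusted p = 0.034), but passed the 5% rate in 0 of 8 fits with a library left out, where its adjusted p was 0.051 to 0.14. *wdr-5.3*, a *wdr-5.1* paralog, had 44.5 and 46.4 CPM in *set-9 set-26*, 33.6 and 24.4 in *set-26*, 31.1 and 26.5 in *set-9* and 32.5 and 24.9 in N2. It rose over *set-9* by 0.66 (SE 0.20, edgeR adjusted p = 0.044) and was at 0.66 over N2 (SE 0.19, adjusted p = 0.071) and 0.65 over *set-26* (SE 0.19, adjusted p = 0.072). With the replicate block, edgeR called it over N2 (0.68, adjusted p = 0.027) and over *set-26* (0.67, adjusted p = 0.027), as did DESeq2 (adjusted p = 0.031 and 0.035) and edgeR without a filter on low counts (0.025 and 0.023). The call over *set-9* was lost without either *set-9* library (edgeR adjusted p = 0.075 and 0.20) and without either *set-9 set-26* library (0.12 and 0.16). *pis-1* shares 45 bases of exon with *T13F2.4* and *wdr-5.3* 77 with *ZC302.3*, both on the opposite strand.

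**Figure D5:**
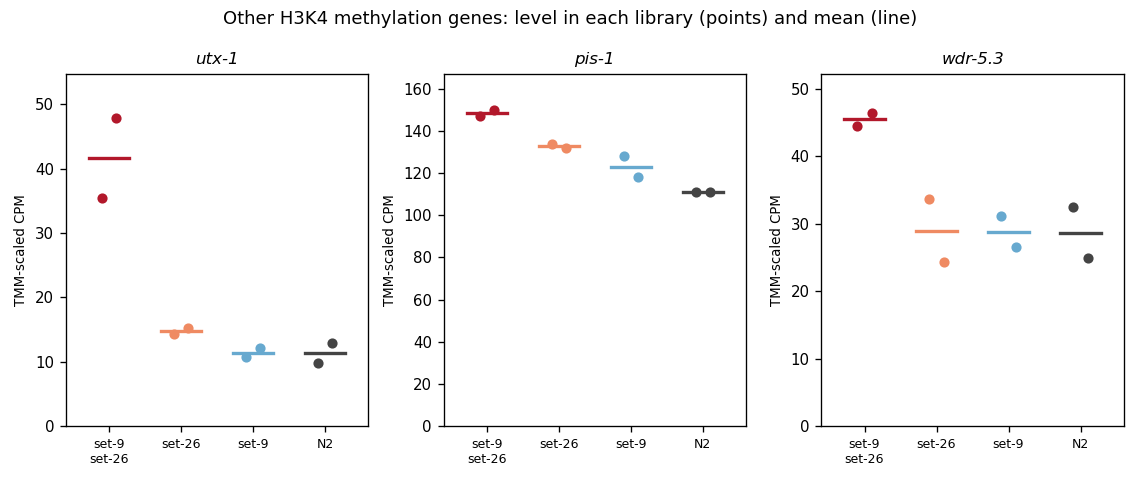
TMM-scaled CPM (vertical axes from 0) of *utx-1*, *pis-1* and *wdr-5.3* in each library (points) with the genotype mean (line), for *set-9 set-26*, *set-26*, *set-9* and N2 from left to right. *utx-1* lies at 35.4 and 47.9 in *set-9 set-26* and at 9.89 to 15.3 in the 6 other libraries.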

How the data were processed

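RNA was sequenced in 8 libraries, 2 per genotype. Per the study's methods, the authors discarded reads of low quality with FASTX and cut off adaptors with cutadapt. They then removed rRNA and tRNA reads, aligned to WS250 with TopHat2 and counted with Cufflinks. The deposited table holds these estimated counts without scaling to depth. Here they were rounded, and 93 entries named as landmarks (0.219 to 0.277% of the reads) were left out, except in the marker sums for *unc-54* and *bli-1*. Genes reaching 20 reads in any library entered edgeR 4.0.16 in R 4.3.3 (TMM scaling, quasi-likelihood test, all 8 libraries, Benjamini-Hochberg adjustment over all 14667 genes, 5% rate). The standard error is the absolute log2 fold change over the square root of F. The common biological coefficient of variation was 0.206. Alternatives were other scalings and filters, the Wald test of DESeq2 1.42.0, a replicate block, each library left out, and the compared libraries alone. The names of the aligned-read files carry a number, from 1 to 4 for the replicate 1 libraries and from 5 to 8 for replicate 2. The sources used here do not say what this number stands for.

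Members and lists were chosen with earlier results of these data known. Named genes are the 10 members, the 10 further H3K4 genes, *set-9*, marker lists and the 3 genes most correlated with *set-2*. The markers *trp-3* and *opt-2* were not matched. Genes and coordinates are from Ensembl 115 on WBcel235. Sequences are from RefSeq. ChIP-seq samples were not analysed here. Figures used matplotlib 3.10.9.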

Additional observations from a re-analysis of the deposited data

Results flagged for a closer look

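*utx-1*, the gene for the H3K27 demethylase of the SET-16 complex, differed in its response to the loss of *set-26* with and without *set-9*. The interaction was 1.49 on the log2 scale (SE 0.28, edgeR adjusted p = 0.020), since *utx-1* was 2.81-fold higher in *set-9 set-26* than the single mutant changes add up to. Loss of *set-26* went with a log2 fold change of 1.87 where *set-9* was also mutant (*set-9 set-26* over *set-9*), and of 0.38 where it was not (*set-26* over N2). Over the alternatives that left out 1 library the interaction ran from 1.25 to 1.69, and 6 of 8 passed the 5% rate.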

How the results depend on the processing

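The number of members called stayed as reported under most alternatives. With library totals and no scaling factor, chosen after the data were seen, 2 members were called in *set-9 set-26* over N2 (*set-2* at 0.47 and *cfp-1* at 0.53) and 2 over *set-9* (the same genes), and the median of all genes moved by 0.17 and 0.18 in these comparisons. Of all 14667 tested genes, 1541 and 3810 were called there with library totals. In a fit to the 4 compared libraries alone, 0 members were called over *set-9*, where 3562 genes in all were called. With each library left out, the number called ran from 0 to 1 in *set-26* over N2, in *set-9 set-26* over N2, over *set-9* and in the interaction. The single call was *lsd-1*, or *set-2* over *set-9*. Where an arm had 1 library, it was assumed to vary like the other genotypes. With replicate number added as a block, the number of members called was 0 in every comparison except *set-9 set-26* over *set-9*, where it was 1, *set-2* (0.41, edgeR adjusted p = 0.026). With the block, 4457 of all tested genes were called in that comparison. No label says that a number marks a shared source. Same-numbered deviations had r from 0.0679 to 0.351, and the block took the number of genes called in *set-9 set-26* over N2 to 2442.

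No called value changed direction. Uncalled values near 0 did. With library totals, *set-16* was at 0.07 and 0.10, *ash-2* at 0.05, *rbbp-5* at 0.09, *dpy-30* at 0.11 and *spr-5* at 0.11 and 0.05, for *set-26* or *set-9 set-26* over N2. With upper quartile scaling *rbbp-5* was at 0.03 and *spr-5* at 0.05 in *set-26*, and *spr-5* was at 0.01 with 20 reads in every library. With each library left out, values over N2 ran in *set-9* from −0.20 to 0.40 for *set-16*, −0.06 to 0.18 for *wdr-5.1*, −0.18 to 0.00 for *rbbp-5*, −0.02 to 0.13 for *cfp-1*, −0.14 to 0.10 for *rbr-2* and −0.06 to 0.20 for *spr-5*. In *set-26* they ran from −0.33 to 0.27 for *set-16*, −0.08 to 0.04 for *rbbp-5*, −0.05 to 0.18 for *rbr-2* and −0.09 to 0.09 for *spr-5*. In *set-9 set-26* they ran from −0.34 to 0.26 for *set-16* and from −0.05 to 0.20 for *wdr-5.1*.

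The background moved more. Over all alternatives the genes called ran from 0 to 746 in *set-9* over N2, 15 to 989 in *set-26* over N2, 134 to 2485 in *set-9 set-26* over N2, 0 to 599 in *set-26* over *set-9*, 1394 to 4457 in *set-9 set-26* over *set-9*, 88 to 2576 over *set-26* and 332 to 2880 in the interaction. With library totals, 69.6% of the calls in *set-9 set-26* over N2 were higher, against 42.8% after TMM scaling. The interaction has no fit to 4 libraries alone. With each library left out, *lsd-1* ran from 0.89 to 9.12 in *set-9 set-26* over N2, from 0.56 to 8.79 in *set-26* and from 0.07 to 8.30 in *set-9*, the high end resting on the N2 library listed at 0.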
